A study of Homo sapiens with 6 samples.

Results

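The genes for collagens, laminin chains, integrin chains, fibulins, fibrillins and further matrix proteins were followed in H1299 cells, a human non-small cell lung cancer cell line, with and without a knockout guide against SETDB1, which encodes a histone H3 lysine 9 methyltransferase. Members were taken by gene symbol, as the protein-coding COL, LAMA, LAMB, LAMC, ITGA, ITGB, FBLN and FBN genes plus TNC, FN1, THBS1, THBS2, BGN, DCN, LUM, TGFBI and LOX. The count table of 18677 genes held 66 of the 98 annotated genes that fit this rule, and 59 of them had enough reads to be tested. The 66 comprised 23 of 44 collagen genes, 11 of 12 laminin genes, 13 of 17 integrin alpha genes, 8 of 9 genes with an ITGB symbol, 5 of 7 fibulin and fibrillin genes and 6 of 9 others. ITGBL1 entered through its symbol, but it encodes an integrin beta-like protein that is not an integrin chain. Genes of the rule with no row, among them COL1A2, COL3A1, COL4A2, COL5A1, BGN, LUM and THBS2, are not analysed here.

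The SETDB1 knockout group (n = 3) carried the guide labelled hSETDB1 sg1 and the control group (n = 3) the guide labelled Control sg2, and both were grown in RPMI-1640 with serum, antibiotics and puromycin. Each group rests on 1 guide, so an effect of the guide and an effect of the targeted gene cannot be told apart. Whether the libraries of a group came from separate cultures, and whether each knockout line was 1 clone, the labels leave unsaid, so the p-values measure only the spread between these libraries, which may be technical. SETDB1 itself read 40.6, 36.1 and 39.1 CPM (counts scaled to the size of each library) in the knockout libraries and 45.0, 44.0 and 41.6 CPM in the controls. That difference was small (log2 fold change -0.17 ± 0.06 SE, edgeR quasi-likelihood adjusted p = 0.0151), with every knockout library below every control library.

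The extracellular matrix is the protein network outside cells. Collagens are trimers of alpha chains that build fibrils, beaded filaments and the sheet-like network of the basement membrane, where laminins, cross-shaped trimers of 1 alpha, 1 beta and 1 gamma chain, form a second network. Integrins are alpha-beta receptor pairs that bind these proteins and couple them to the actin cytoskeleton, and epithelial cells rest on a basement membrane through laminin-binding integrins. The trimers mean that the amount of a complex depends on all its chains, whereas the values here are the mRNA of each chain on its own.

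Matrix and integrin genes changed in both directions, most often downward. At an adjusted p under 0.05, 17 of the 59 tested members rose (28.8%) and 28 fell (47.5%), beside 31.9% of all 17675 tested genes called higher and 31.6% called lower. The share called in either direction was 76.3% of members and 63.5% of all genes. A change of at least 1 on the log2 scale was called in 18 members, 9 higher and 9 lower (30.5% of those tested), against 12.9% of all genes. The libraries of the groups did not overlap for 48 members (81.4%), where 66.8% of all genes showed the same. The median log2 fold change was -0.145 over the members tested and 0.009 over all genes tested. The members' median depended on which low genes passed the count filter: without control replicate 1, when 63 members passed, it was 0.017, and over the 59 members it was then -0.095. Of the 9 members that rose by at least 1, 7 averaged under 10 CPM in the controls, and so did 7 of the 9 that fell by as much.

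**Figure D1:**
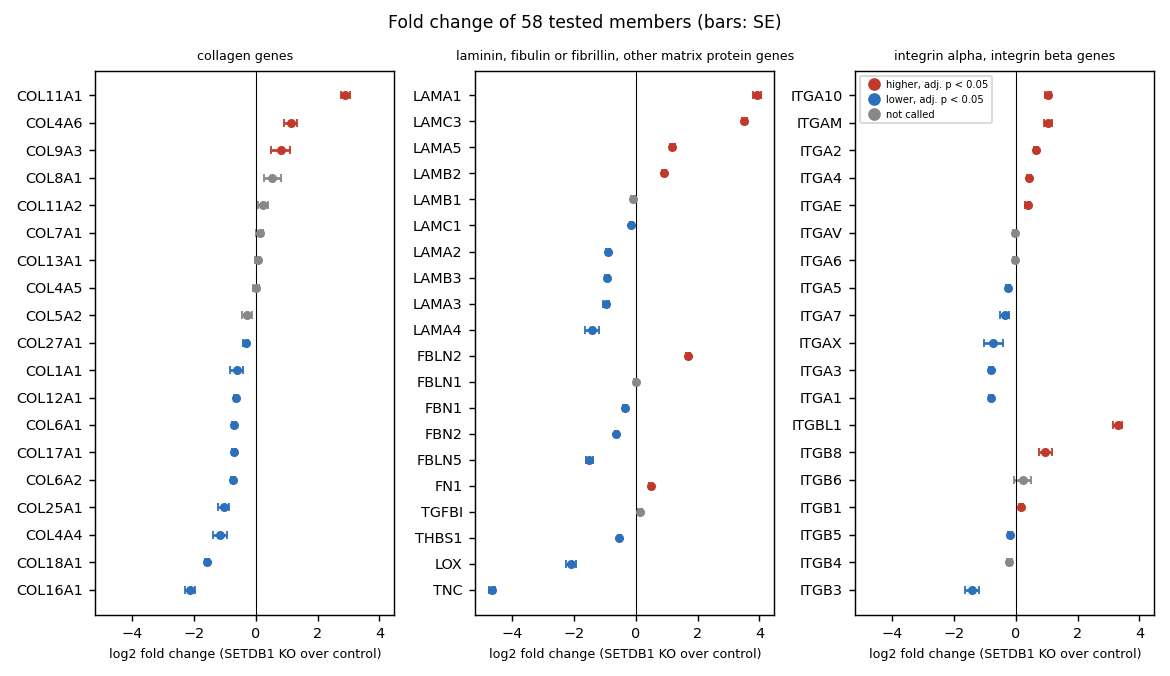
Log2 fold change (SETDB1 knockout over control, x axis) of 58 of the 59 tested members, with SE bars, by family. Red points rose and blue points fell at an adjusted p under 0.05, and grey points were not called. TNC at -4.65 and LAMA1 at 3.91 are the ends of the range.

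Laminin chains changed in both directions: of 11 tested, 4 rose (36.4%), 5 fell (45.5%) and 2 were not called, with a median of -0.087. The shares of all tested genes called higher and lower were 31.9% and 31.6%. The alpha chains LAMA1 and LAMA5 and the chains LAMB2 and LAMC3 were higher in the knockout, and LAMA2, LAMA3, LAMA4 and LAMB3 were lower. LAMA1 (chromosome 18, 6941744 to 7117814, minus strand, GRCh38) encodes the alpha1 chain, known from the early embryo and some adult epithelia. It read 13.4, 11.8 and 12.3 CPM in the knockout and 1.03, 0.820 and 0.650 CPM in the controls. This was 14.9-fold higher (log2 fold change 3.91 with an SE of 0.13, edgeR adjusted p = 3.76e-15), with all 3 knockout libraries far above the controls. Exons of other genes cover 11.1% of LAMA1's exon sequence, and no source used here says how the counting treated strand.

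LAMC3 (chromosome 9, 131009082 to 131094473, plus strand), which encodes the gamma3 chain, read 68.5, 64.1 and 65.0 CPM in the knockout against 5.87, 6.21 and 5.25 CPM. It was 11.4-fold higher (log2 fold change 3.51 ± 0.07, edgeR adjusted p = 1.53e-18). LAMA5, the alpha5 chain of most adult epithelial basement membranes, was the most abundant alpha chain per kilobase in both groups. It read 228, 207 and 219 CPM in the knockout and 107, 98.6 and 83.3 CPM in the controls, 2.26-fold higher (log2 fold change 1.18 ± 0.07, edgeR adjusted p = 2.54e-11). LAMB2, the beta2 chain, rose from 81.3, 81.0 and 71.3 CPM to 155, 141 and 141 CPM (log2 fold change 0.90 ± 0.06, edgeR adjusted p = 1.07e-10). In each of these genes every knockout library lay above every control library.

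The laminin chains that fell included both LAMA3 and LAMB3, the alpha3 and beta3 chains found in the laminin of epithelial anchoring filaments. LAMB3 read 116, 111 and 108 CPM in the knockout and 231, 211 and 198 CPM in the controls, 1.91-fold lower (log2 fold change -0.93 ± 0.06, edgeR adjusted p = 5.72e-11). LAMA3 read 4.30, 4.33 and 4.74 CPM against 9.21, 9.02 and 7.85 CPM (log2 fold change -0.96 ± 0.10, edgeR adjusted p = 4.78e-08). LAMC1, the gamma1 chain found in most laminins, read 352, 322 and 318 CPM against 392.1, 358 and 347 CPM (log2 fold change -0.15 ± 0.06, edgeR adjusted p = 0.0409). The LAMC1 groups overlapped, and its call was lost when any of 4 single libraries was left out, namely knockout replicates 2 and 3 and control replicates 1 and 2 (adjusted p from 0.0581 to 0.168). LAMA2, the alpha2 chain of muscle and nerve basement membranes, read 16.7, 14.7 and 15.2 CPM against 31.2, 26.8 and 29.4 CPM (log2 fold change -0.91 ± 0.07, edgeR adjusted p = 1.18e-09). LAMA4, the alpha4 chain of vessel walls and other mesenchymal tissue, read 0.733, 0.549 and 0.673 CPM against 2.10, 1.42 and 1.72 CPM (log2 fold change -1.42 ± 0.21, edgeR adjusted p = 8.38e-06). LAMB1, the beta1 chain, was not called (log2 fold change -0.09 ± 0.06).

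The order of the chains per kilobase changed with the group. Among alpha chains the control order was LAMA5 (6.74 CPM per kb), LAMA2 (2.81), LAMA3 (0.592), LAMA4 (0.151) and LAMA1 (0.0526). In the knockout LAMA1 stood in the middle at 0.786 CPM per kb, below LAMA5 (15.2) and LAMA2 (1.5) and above LAMA3 (0.304) and LAMA4 (0.0563). LAMB3 led the beta chains in the controls at 45.5 CPM per kb, with LAMB1 at 21.1 and LAMB2 at 11.3. In the knockout the values of LAMB3, LAMB2 and LAMB1 lay close together, at 23.9, 21.2 and 19.9 CPM per kb. LAMC3 went from 0.761 to 8.67 CPM per kb and stayed below LAMC1 (39.3). The summed level of the laminin genes spanned 1140 to 1247 CPM in the knockout and 1016 to 1171 CPM in the controls, so the group sums overlapped while the chains making them up differed.

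**Figure D2:**
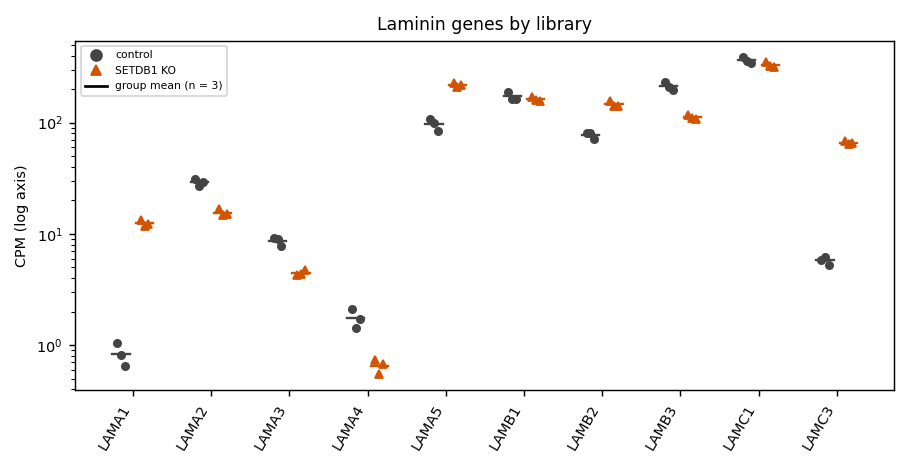
CPM of 10 laminin chain genes in each library (log axis). Circles are controls, triangles are SETDB1 knockout libraries and lines are group means (n = 3). LAMA1 and LAMC3 show the widest gaps, with knockout libraries at 11.8 to 13.4 and 64.1 to 68.5 CPM.

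Start-site sequence was looked at for members whose window could be matched in the RefSeq promoter table (GRCh38.p14). LAMA5 is shown first because it is the most CpG-dense of the printed set. Its 250 bases before the start site (chr20:62367313-62367562, minus strand) hold 32 CpG dinucleotides, given in capitals, at 82.8% GC.
LAMA5: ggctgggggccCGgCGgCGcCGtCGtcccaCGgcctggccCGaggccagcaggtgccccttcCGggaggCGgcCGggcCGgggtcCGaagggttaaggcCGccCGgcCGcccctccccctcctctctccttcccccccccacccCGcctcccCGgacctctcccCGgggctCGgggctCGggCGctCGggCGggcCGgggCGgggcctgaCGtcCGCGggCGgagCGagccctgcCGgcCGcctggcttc
Of the 66 members, 50 had an entry, and LAMA1 and LAMC3 had none. The RefSeq start lay within 1000 bases of the annotated gene start for 46 of them. It was farther off for COL11A2, ITGB1, FBN2 and LAMA3, whose windows belong to another start. As a check of direction, bases just after the RefSeq start matched an annotated transcript in sense for 41 of the 50. All 50 were kept in the values below. Over 250 bases upstream, the median CpG number was 7 in the 7 matched members that rose by at least 1 on the log2 scale (range 1 to 33), 18 in the 8 that fell by as much (range 5 to 37), 16 in all 50 and 11 in all 27305 promoters of the table. These windows run upstream of the RefSeq start. Those of COL11A1, which rose, and COL16A1, FBLN5 and LAMA4, which fell, lay wholly inside the annotated gene. The window of COL4A4, which fell, kept 2 bases outside it. The ranges of the members that rose and fell overlap, and both sets were chosen by their fold change, so these values are a description with no test. All 50 windows of members belong to genes with a row in the count table, whereas the 27305 were not limited to such genes. Differences between these 2 sets are therefore also a description with no test. The GC box GGGCGG, searched on both strands, was in 62.0% of the members' windows and 42.3% of all windows. The TATA box TATAAA was in 10% and 11.1%, the AP-1 motif TGANTCA in 2.0% and 6.6%, the TEAD motif GGAATG in 14.0% and 11.9%, and the E-box CANNTG in 48.0% and 62.2% of the same windows.

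Collagen genes fell more often than they rose. Of 19 tested, 3 rose (15.8%), 10 fell (52.6%) and 6 were not called, with a median log2 fold change of -0.33. Of all tested genes, 31.9% were called higher and 31.6% lower. Their summed level was 404 to 445 CPM in the knockout and 638 to 773 CPM in the controls, with no overlap. That sum mostly follows COL6A2, COL12A1, COL18A1 and COL6A1. They averaged 195, 177, 128 and 125 CPM in the controls and 116, 114, 42.6 and 76.7 CPM in the knockout. In bulk RNA, fewer cells expressing a gene and less RNA per cell cannot be told apart, here and below. COL18A1 (chromosome 21, 45405137 to 45513720, plus strand), the basement membrane collagen whose end fragment is endostatin, read 44.1, 42.8 and 41.1 CPM in the knockout and 146, 125 and 114 CPM in the controls. It was 3.00-fold lower (log2 fold change -1.59 ± 0.07, edgeR adjusted p = 3.32e-13). SLC19A1 on the opposite strand covers 16.4% of its exon sequence. SLC19A1 averaged 81.1 CPM in the controls and 90.5 CPM in the knockout and was not called, and its reads cannot be separated from COL18A1's in the shared stretch if strand was not used.

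COL16A1, a fibril-associated collagen, read 0.767, 1.01 and 0.819 CPM against 3.57, 4.01 and 3.98 CPM, 4.45-fold lower (log2 fold change -2.14 ± 0.16, edgeR adjusted p = 3.60e-10). COL25A1, a membrane-spanning collagen, read 1.63, 1.33 and 0.849 CPM against 2.67, 2.62 and 2.48 CPM (log2 fold change -1.04 ± 0.18, edgeR adjusted p = 5.44e-05). In both genes every knockout library lay below every control library. The beaded-filament chains COL6A1 and COL6A2, neighbours on chromosome 21 and the collagen genes with the highest CPM per kb, fell together. COL6A1 read 81.3, 72.5 and 76.3 CPM against 139.9, 124 and 111 CPM (log2 fold change -0.70 ± 0.07, edgeR adjusted p = 3.28e-08). COL6A2 read 120.3, 113 and 113 CPM against 215, 194 and 176 CPM (log2 fold change -0.75 ± 0.06, edgeR adjusted p = 3.72e-09). The log2 ratio of COL6A2 to COL6A1 was 0.59 ± 0.04 in the knockout and 0.64 ± 0.02 in the controls (SD, n = 3 each, two-sided exact permutation p = 0.2, 0.2 adjusted over 5 gene pairs). Other collagens that fell were COL17A1 (log2 fold change -0.71), a hemidesmosome collagen, COL12A1 (-0.64), COL1A1 (-0.62) and COL27A1 (-0.33). COL1A1, a chain of the main fibril collagen, stayed near 1 CPM in both groups, and DESeq2 did not call it (adjusted p = 0.0689).

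The collagen with the largest rise was COL11A1 (chromosome 1, 102876467 to 103108872, minus strand), a minor chain of cartilage-type fibrils. It read 5.63, 5.11 and 5.03 CPM in the knockout and 0.701, 0.725 and 0.678 CPM in the controls, 7.50-fold higher (log2 fold change 2.90 ± 0.15, edgeR adjusted p = 1.88e-12). Replicates varied little beside that gap, with an SD of 0.325 CPM in the knockout and 0.0237 CPM in the controls. COL9A3 rested on 28 counts over the 3 control libraries, and its call (log2 fold change 0.80) was lost when knockout replicate 1 or 2 or control replicate 1 or 3 was left out (edgeR adjusted p from 0.0546 to 0.138). The 6 collagens not called were COL4A5, COL5A2, COL7A1, COL8A1, COL11A2 and COL13A1. Too few reads to test were left for COL4A1, COL4A3, COL19A1 and COL28A1, with 8 to 32 counts over the 3 control libraries.

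Type IV collagen, the network former of basement membranes, is encoded by pairs of genes that share a start region and are read in opposite directions. COL4A5 and COL4A6 on chromosome X start 347 bases apart, with 346 bases between the genes. The upstream sequences of the pair are printed because they overlap each other on opposite strands while the genes were called differently. For COL4A5 it is chrX:108439588-108439837 (plus strand, 8 CpG) and for COL4A6 chrX:108439498-108439708 (minus strand, 6 CpG), 5′ to 3′ from RefSeq GRCh38.p14, cut where the annotated gene begins, with CpG in capitals.
COL4A5: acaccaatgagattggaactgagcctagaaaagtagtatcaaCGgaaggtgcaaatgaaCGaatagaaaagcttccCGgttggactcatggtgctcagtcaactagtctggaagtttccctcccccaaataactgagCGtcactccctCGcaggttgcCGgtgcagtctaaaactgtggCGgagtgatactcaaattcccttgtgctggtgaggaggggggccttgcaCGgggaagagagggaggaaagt
COL4A6: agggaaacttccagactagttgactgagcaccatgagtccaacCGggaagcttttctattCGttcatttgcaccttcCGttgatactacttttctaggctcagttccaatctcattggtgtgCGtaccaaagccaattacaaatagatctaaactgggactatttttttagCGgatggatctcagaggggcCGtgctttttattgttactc
COL4A6 read 2.03, 1.56 and 2.02 CPM in the knockout and 0.968, 0.946 and 0.678 CPM in the controls, 2.17-fold higher (log2 fold change 1.12 ± 0.20, edgeR adjusted p = 5.31e-05). COL4A5 read 8.23, 7.54 and 7.46 CPM against 7.91, 7.98 and 7.23 CPM (log2 fold change 0.01 ± 0.09) and was not called. The COL4A5 groups overlapped, and those of COL4A6 did not. The log2 ratio of COL4A6 to COL4A5 was -2.06 ± 0.20 in the knockout and -3.17 ± 0.21 in the controls (SD, n = 3 each), a difference of 1.11. The two-sided exact permutation p of that difference was 0.1, the smallest that 3 against 3 libraries allow, and 0.125 after adjustment over 5 gene pairs. In the other such pair, COL4A4 read 0.700, 0.549 and 0.702 CPM against 1.90, 1.36 and 1.16 CPM (log2 fold change -1.16 ± 0.23, edgeR adjusted p = 2.10e-04), and COL4A3, 111 bases away, had 12 knockout and 32 control counts and was not tested.

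Among the other matrix proteins, tenascin-C showed the largest change of all members. TNC (chromosome 9, 115019578 to 115118257, minus strand) encodes a large oligomeric glycoprotein typical of embryonic, wounded and tumour tissue. It read 0.933, 1.04 and 0.936 CPM in the knockout and 26.2, 23.7 and 23.8 CPM in the controls. This was 25.3-fold lower (log2 fold change -4.65 ± 0.11, edgeR adjusted p = 8.81e-18), and its place among the 66 members by CPM per kb moved from 25 to 53. The upstream sequence outside the annotated gene (chr9:115118258-115118407, minus strand) is shown because of that change. It has 8 CpG, in capitals, at 56.7% GC.
TNC: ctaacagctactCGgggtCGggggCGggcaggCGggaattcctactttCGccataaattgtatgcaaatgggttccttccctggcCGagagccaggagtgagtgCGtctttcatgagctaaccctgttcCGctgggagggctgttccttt
LOX, the lysyl oxidase that crosslinks collagen and elastin, read 0.900, 0.953 and 0.995 CPM against 4.74, 3.72 and 3.81 CPM (log2 fold change -2.10 ± 0.16, edgeR adjusted p = 6.31e-10). THBS1, the adhesive and TGF-beta-activating thrombospondin, fell from 188, 171 and 162 CPM to 126, 117 and 116 CPM (log2 fold change -0.54 ± 0.06, edgeR adjusted p = 1.67e-07). FN1, fibronectin, moved the other way, from 44.2, 40.5 and 40.6 CPM to 62.2, 55.8 and 56.3 CPM (log2 fold change 0.48 ± 0.06, edgeR adjusted p = 7.53e-07). None of these 4 genes had overlapping groups. TGFBI, a collagen- and integrin-binding protein, read 18.3, 18.2 and 17.3 CPM against 16.8, 16.4 and 15.5 CPM and was not called (log2 fold change 0.15 ± 0.07, edgeR adjusted p = 0.0599), although it was called under 3 other settings (adjusted p from 0.0197 to 0.0473). DCN, decorin, had 38 knockout and 16 control counts and was not tested.

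The fibulins, elastic-fibre and basement-membrane glycoproteins, went different ways. FBLN2 (chromosome 3, 13549131 to 13638422, plus strand) read 44.7, 40.6 and 43.3 CPM in the knockout and 14.6, 12.8 and 12.4 CPM in the controls, 3.23-fold higher (log2 fold change 1.70 ± 0.07, edgeR adjusted p = 6.20e-14). FBLN5, which binds elastin and integrins, read 2.97, 2.54 and 3.13 CPM against 9.44, 7.54 and 7.62 CPM, 2.85-fold lower (log2 fold change -1.51 ± 0.12, edgeR adjusted p = 1.13e-09). FBLN1 read 65.4, 63.2 and 64.4 CPM against 68.3, 63.6 and 62.0 CPM, with overlapping groups and a log2 fold change of -0.01 ± 0.05. Both fibrillin genes with a row, which encode the microfibril backbone, fell. FBN2 read 104, 92.0 and 95.7 CPM against 162, 149 and 142 CPM (log2 fold change -0.63 ± 0.06, edgeR adjusted p = 2.22e-08). FBN1 read 102, 93.9 and 91.0 CPM against 132, 119 and 115 CPM (log2 fold change -0.35 ± 0.06, edgeR adjusted p = 5.41e-05).

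**Figure D3:**
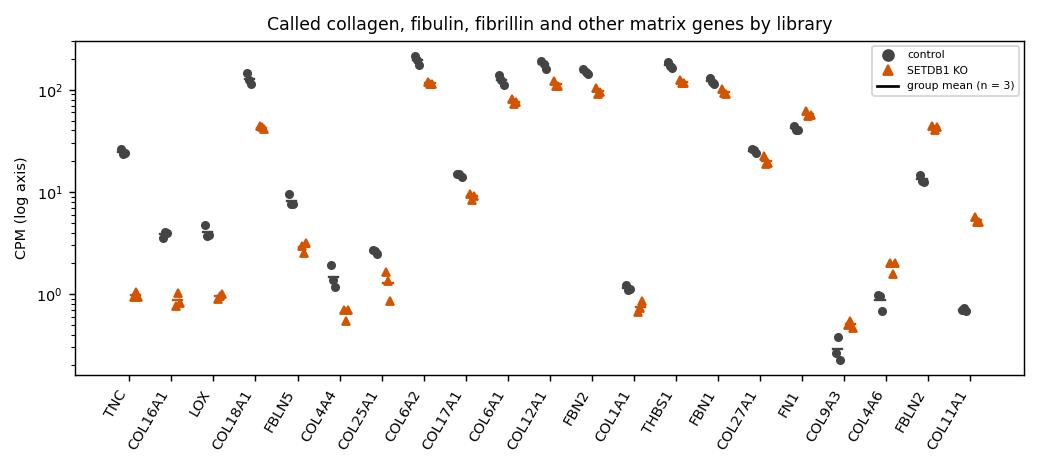
CPM in each library (log axis) of the collagen, fibulin, fibrillin and other matrix protein genes that were called. Circles are controls, triangles are SETDB1 knockout libraries and lines are group means (n = 3). The order runs from the largest fall, TNC, to the largest rise, COL11A1.

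Integrin genes held 67.2 to 69.4% of all reads on members. Per kilobase of exon, the same 3 chains led both groups in the same order, with ITGB1 (258 CPM per kb in controls, 292 in the knockout), ITGA6 (222 and 217) and then ITGA3 (129 and 73.4). ITGB1, the beta1 chain shared by many receptors, read 1800, 1772 and 1688 CPM in the knockout and 1656, 1513 and 1492 CPM in the controls (log2 fold change 0.18 ± 0.06, edgeR adjusted p = 0.0143). That call was lost without knockout replicate 2 (adjusted p = 0.0681) or control replicate 2 (0.101). ITGA6, the laminin-binding alpha6 chain, read 1488, 1421 and 1352 CPM against 1548, 1430 and 1373 CPM, was not called (log2 fold change -0.03 ± 0.06) and changed sign under other scalings. ITGA3 (chromosome 17, 50055968 to 50090481, plus strand), the other major laminin-binding alpha chain, read 766, 694 and 698 CPM against 1378, 1229 and 1175 CPM. It was 1.75-fold lower (log2 fold change -0.81 ± 0.06, edgeR adjusted p = 1.55e-09), with no overlap.

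The collagen-binding alpha chains ITGA1 and ITGA2 are neighbours on chromosome 5, 30115 bases apart and read in the same direction. They were called in opposite directions, and their upstream sequences are printed for that reason, ITGA1 at chr5:52787666-52787895 (15 CpG, 61.7% GC) and ITGA2 at chr5:52989102-52989325 (24 CpG, 77.2% GC), both on the plus strand from RefSeq GRCh38.p14 with CpG in capitals.
ITGA1: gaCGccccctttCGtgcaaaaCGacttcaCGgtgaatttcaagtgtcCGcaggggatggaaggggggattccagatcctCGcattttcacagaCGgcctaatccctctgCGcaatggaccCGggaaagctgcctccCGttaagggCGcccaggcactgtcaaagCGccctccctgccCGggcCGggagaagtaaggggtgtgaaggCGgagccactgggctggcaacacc
ITGA2: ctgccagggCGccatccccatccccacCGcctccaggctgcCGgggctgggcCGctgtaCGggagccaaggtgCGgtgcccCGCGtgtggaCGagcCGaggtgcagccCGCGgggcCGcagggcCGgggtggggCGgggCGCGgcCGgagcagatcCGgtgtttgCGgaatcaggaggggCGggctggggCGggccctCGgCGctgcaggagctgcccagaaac
ITGA1 read 15.6, 15.9 and 15.3 CPM in the knockout and 28.4, 26.5 and 27.3 CPM in the controls (log2 fold change -0.81 ± 0.06, edgeR adjusted p = 8.43e-10). ITGA2 read 44.4, 44.2 and 41.3 CPM against 29.1, 27.3 and 26.9 CPM (log2 fold change 0.64 ± 0.06, edgeR adjusted p = 9.68e-09). The log2 ratio of ITGA2 to ITGA1 was 1.47 ± 0.04 in the knockout and 0.02 ± 0.04 in the controls (SD, n = 3 each), a difference of 1.45 (two-sided exact permutation p = 0.1, the smallest possible, 0.125 adjusted over 5 pairs). ITGA10, a further collagen-binding chain, read 12.4, 10.5 and 12.1 CPM against 5.87, 5.27 and 5.93 CPM (log2 fold change 1.03 ± 0.09, edgeR adjusted p = 6.70e-09). The collagen-binding alpha chains with a row thus rose in 2 cases and fell in 1.

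Of the 12 integrin alpha genes tested, 5 rose (41.7%), 5 fell (41.7%) and 2 were not called, with a median of -0.03. The shares of all tested genes were 31.9% higher and 31.6% lower. The summed level of the integrin alpha genes was 2584 to 2818 CPM in the knockout and 3046 to 3482 CPM in the controls. ITGA3 alone averaged 719 CPM in the knockout and 1260 CPM in the controls, so the fall of the sum follows ITGA3. ITGA4, a fibronectin- and VCAM1-binding chain, rose (log2 fold change 0.43 ± 0.06), while the fibronectin receptor chain ITGA5 fell (-0.26 ± 0.06). ITGAV, the alpha chain of several vitronectin and TGF-beta-binding receptors, was not called. ITGAM, the alpha chain of a leukocyte receptor, read 5.63, 4.97 and 6.06 CPM against 2.90, 3.03 and 2.26 CPM (log2 fold change 1.03 ± 0.13, edgeR adjusted p = 6.39e-07). Its partner chain ITGB2 had 12 knockout and 22 control counts and was not tested. The neighbouring leukocyte gene ITGAX (log2 fold change -0.73 ± 0.31, edgeR adjusted p = 0.0484) and the laminin-binding ITGA7 (-0.36 ± 0.14, adjusted p = 0.0321) were weak calls. Both lost the call when knockout replicate 2 or 3, or control replicate 1 or 2, was left out, and in DESeq2.

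Of the 7 tested genes with an ITGB symbol, 3 rose (42.9%), 2 fell (28.6%) and 2 were not called, where 31.9% of all tested genes rose and 31.6% fell. The largest rise was in ITGBL1, the integrin-like gene (chromosome 13, 101452593 to 101720856, plus strand). It read 7.17, 8.21 and 7.43 CPM in the knockout and 0.734, 0.694 and 0.876 CPM in the controls, 9.90-fold higher (log2 fold change 3.29 ± 0.14, edgeR adjusted p = 1.14e-13). Exons of other genes cover 70.5% of its exon sequence, so the value is uncertain. ITGB8, the beta chain of a TGF-beta-activating receptor, read 1.40, 1.73 and 1.81 CPM against 0.634, 0.788 and 1.10 CPM (log2 fold change 0.96 ± 0.21, edgeR adjusted p = 5.15e-04). ITGB3, the platelet and endothelial vitronectin receptor chain, read 0.700, 0.491 and 0.468 CPM against 1.301, 1.48 and 1.64 CPM (log2 fold change -1.43 ± 0.22, edgeR adjusted p = 1.22e-05), with 51.6% of its exon sequence shared with another gene. ITGB5, another vitronectin receptor chain, fell by less (log2 fold change -0.19 ± 0.06, edgeR adjusted p = 0.00656). ITGB4, the alpha6 partner of hemidesmosomes, had a log2 fold change of -0.21 ± 0.09 and was not called (edgeR adjusted p = 0.0575).

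**Figure D4:**
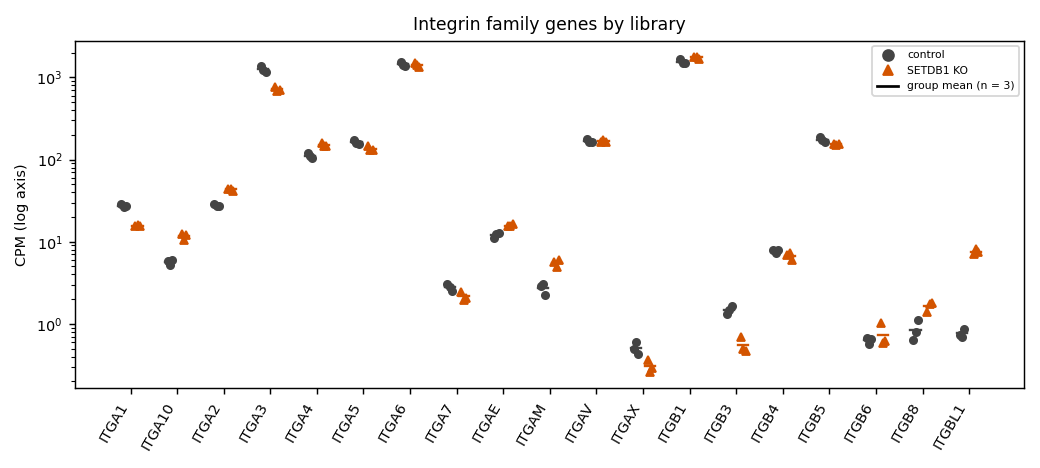
CPM of the 19 tested integrin-family genes in each library (log axis). Circles are controls, triangles are SETDB1 knockout libraries and lines are group means (n = 3). ITGB1 and ITGA6 lie highest in both groups, ITGA1 and ITGA2 separate in opposite directions and ITGBL1 shows the widest gap.

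To see whether members moved with their surroundings, each was set beside the median log2 fold change of the 25 expressed genes on each side of it on its chromosome. These medians ran from -0.60 to 0.64. They were below -0.25 for 15 tested members, of which 10 fell (66.7%) and 2 rose (13.3%). Of all 3162 tested genes with such a neighbourhood, 63.3% fell and 9.46% rose, so the members' shares lay near those of other genes placed alike. COL12A1, with a log2 fold change of -0.64, had a neighbourhood median of -0.51, COL17A1 (-0.71) one of -0.54, COL27A1 (-0.33) one of -0.35 and FBN1 (-0.35) one of -0.33. With the neighbourhood median taken out, 38 of the 45 called members kept their call and direction. The other 7 were COL12A1, COL17A1, COL27A1, FBN1, COL9A3, LAMC1 and ITGAE, the alpha chain of an E-cadherin receptor. In all, that setting called 18 members higher and 27 lower. Over all tested genes it called 5332 higher and 4694 lower, where the main fit called 5635 and 5584. ITGAE had a log2 fold change of 0.38 beside 0.64 for its neighbours, and was called lower relative to them (-0.26, edgeR adjusted p = 0.00517). Another 6 members, LAMB1, FBLN1, COL4A5, COL13A1, ITGB4 and ITGB6, were called relative to their neighbours although their own fold changes were not. The median entered these fits as a fixed number. Their p-values therefore do not measure how far the neighbours scatter around it. Among the 8 members with the largest fold changes, the neighbourhood medians were -0.31 for TNC, -0.02 for LAMA1 and COL11A1, -0.17 for LAMC3, -0.16 for ITGBL1, -0.03 for COL16A1, 0.12 for LOX and 0.29 for FBLN2. All 8 kept their call with that median taken out, and for TNC, COL16A1 and FBLN2 it lay in the member's own direction. The part these neighbourhood shifts play in the members' changes was not tested.

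**Figure D5:**
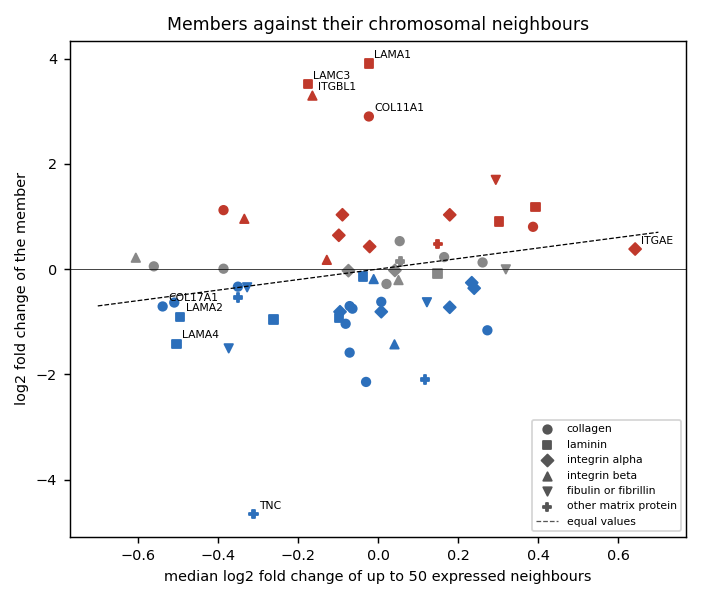
Log2 fold change of 58 tested members (y axis) against the median log2 fold change of the 25 expressed genes on each side of each (x axis). Red rose, blue fell, grey was not called, shapes give the family and the dashed line marks equal values. LAMA1, LAMC3, ITGBL1, COL11A1 and TNC lie far from the line, and COL17A1 lies close to it.

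Genes that work with the members were counted from 5 lists of pathway genes. Of 32 tested integrin adaptors and focal adhesion genes, 12 rose and 16 fell (median log2 fold change -0.18). VCL, vinculin, read 450 to 495 CPM in the knockout and 998 to 1081 CPM in the controls (log2 fold change -1.15 ± 0.06). The actin crosslinker ACTN4 fell by 1.40 ± 0.06 on the log2 scale, while the talin-binding KANK1 rose by 2.58 ± 0.13 and the kindlin FERMT1 by 1.75 ± 0.08. Neighbours of VCL and ACTN4 had medians of -0.51 and -0.59. Among 28 tested collagen biosynthesis and crosslinking genes 13 rose and 9 fell (median 0.14). The prolyl hydroxylase-family gene P3H3 rose by 1.11 ± 0.07 and the procollagen protease gene TLL1 by 1.25 ± 0.24, while LOXL2 and LOXL1 fell by 1.74 ± 0.07 and 0.89 ± 0.09. Of the other two LOX relatives, LOXL4, under 1 CPM, also fell (log2 fold change -1.78), and LOXL3 rose (0.57), so the relatives moved in both directions. Of 13 other basement membrane genes tested, 1 rose and 8 fell (median -0.61). NID1, nidogen, which bridges laminin and collagen IV, fell by 1.65 ± 0.07, PAPLN by 0.99 ± 0.08, and NTN1, netrin, rose by 0.76 ± 0.22. Interstitial matrix genes that are not members had 8 higher and 14 lower calls of 25 tested (median -0.47), with THBS3 (log2 fold change 1.82) and VWA1 (1.25) highest and MFAP5 (-2.73) and MATN2 (-2.01) lowest. Matrix receptors other than integrins had 7 higher and 8 lower calls of 20 tested (median -0.09). The glypicans GPC4 (2.72) and GPC2 (0.35) rose, while the glypicans GPC1 (-0.66) and GPC6 (-0.53) fell. The hyaluronan receptor CD44 (-1.10) and the laminin receptor BCAM (-0.96), whose neighbours had a median of -0.82, also fell. The counts of the 5 lists stand beside the 31.9% and 31.6% of all genes called higher and lower.

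The libraries held 29532057 to 35941288 counted reads, and members took 0.661 to 0.712% of them in the knockout and 0.685 to 0.775% in the controls. Replicate 1 was the highest of its group for 42 of the 59 tested members in each group (71.2%), against 38.1% of all tested genes in the knockout and 35.1% in the controls. Leaving out any one library left 16 to 18 members higher and 25 to 28 lower. KRT8 and KRT18, keratins of simple epithelia, were present at 157 and 332 CPM on average in the knockout and 367 and 599 CPM in the controls, both lower. The keratin KRT7 averaged 0.432 CPM in the knockout and 0.531 CPM in the controls and was not called, and EPCAM stayed under 1 CPM. All 4 mesenchymal markers fell, by log2 fold changes of -0.13 for VIM (means of 2430 CPM in the controls and 2216 CPM in the knockout), -1.18 for CDH2, -0.17 for ZEB1 and -1.08 for SNAI2. The 3 lung lineage markers with a row were under 1 CPM in every library, with NKX2-1 called lower (log2 fold change -0.99) and NAPSA (1.48) and FOXA2 called higher. FOXA2 read 0.900, 0.462 and 0.556 CPM in the knockout and 0 in the 3 controls. CDH1, KRT19 and the surfactant genes of the marker list are not analysed here. Markers of other cell types summed to 17.0 to 18.0 CPM in the knockout and 13.2 to 15.1 CPM in the controls for fibroblasts (4 of 9 genes with a row), 2.20 to 2.51 and 4.38 to 5.71 CPM for endothelium (3 of 7), and 1.10 to 1.58 and 0.424 to 0.801 CPM for blood cells (3 of 8). Of the fibroblast markers PRRX1 rose (log2 fold change 0.65), ACTA2 (-0.89) and PDGFRB (-2.06) fell and S100A4 was not called, so the sum follows PRRX1. Every row of the count table reached at least 11 counts in some library, so no marker with a row could be at 0 in all 6. PTPRC, PECAM1 and CDH5 are not analysed here. The part these levels play in the members' changes was not tested.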

How the data were processed

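Raw read counts per Ensembl gene, as the authors deposited them, were analysed for 3 SETDB1 knockout and 3 control libraries, grouped by guide label. FastQC, TopHat2, HTSeq and GRCh38.p7 are named in the submitters' processing notes, and no source used here gives versions, annotation or strand handling. Every row reached at least 11 counts in some library. Names, exon lengths and coordinates (GRCh38) came from GENCODE 29, matched by identifier for 18595 of 18677 rows.

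edgeR 4.0.16 (R 4.3.3) removed 1002 genes with filterByExpr, scaled by TMM (factors 0.976 to 1.02) and compared the groups with its robust quasi-likelihood test, with Benjamini-Hochberg adjustment over 17675 genes at 0.05. The test was checked on simulated counts. SEs are the log2 fold change over the square root of F. CPM used TMM-scaled totals (1 count is 0.0282 to 0.0334 CPM), so counting error limits members near 1 CPM. Levels of different genes were compared per kilobase of merged exons. Replicates differed by more than sampling noise (chi-square per degree of freedom 2.33 to 10.4). Gene pair ratios used exact permutation tests.

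Values were printed for called members changed by at least 1 (log2) with at least 1 CPM in the higher group, the 2 highest members per kb in each family, the single glycoproteins, adjacent pairs and the 2 strongest calls each way in each pathway list among genes with at least 1 CPM in the higher group's mean. Of the tested members, 1, kept in all counts, is not reported here by name. Other members, list genes and markers named were chosen after their values were seen. Members and lists were chosen with earlier results of these data known. Alternatives were DESeq2 1.42.0 (size factors and test), upper-quartile and library-size scaling, other filters, limma-voom (limma 3.58.1), a fold threshold of 1.5, an adjusted p of 0.01, a replicate block, removal of neighbourhood medians and leaving out each library.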

Additional observations from a re-analysis of the deposited data

How the results depend on the processing

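Scaling by DESeq2 size factors, upper quartile or library size, DESeq2 and limma-voom tests, a filter of 1 CPM in 3 libraries, an adjusted p of 0.01 and the removal of neighbourhood medians left 15 to 18 members higher and 24 to 28 lower, within 1.5 times the reported 17 and 28. Over all genes, those settings called 4730 to 6155 higher and 4694 to 5583 lower, where the main fit called 5635 and 5584. The balance shifted upward by library size, with 6155 genes higher and 5088 lower. A test against a fold of 1.5 called 10 members higher and 15 lower, and 1556 genes higher and 1496 lower. Without a count filter 19 members were higher and 28 lower, with 5797 genes higher and 5695 lower. The median over 66 members was then -0.06, and -0.147 over the 59. Some members too low for the main fit were called in other settings. COL19A1 was called higher in every setting that tested it (edgeR adjusted p at most 0.00632). In at least 1 setting DCN was called higher (lowest edgeR adjusted p 0.00812) and COL4A3 lower (0.0183). Leaving out 1 library gave 16 to 18 members higher, 25 to 28 lower, 5072 to 5570 genes higher, 5163 to 5524 lower and a median of -0.159 to 0.017. Over all tested genes, same-numbered libraries had correlations of 0.203, -0.1 and 0.085, and differently numbered ones -0.262 to 0.224. These values show no pairing by number over all genes. Among members, replicate 1 was the highest library for 42 of 59 in each group, so a shared factor is not excluded. With a replicate block 17 members were higher and 28 lower, 5864 genes higher and 5839 lower. Under that block ITGAX lost its call (adjusted p = 0.0593 by edgeR) and ITGB4 gained one (0.0451). Some log2 fold changes turned sign. With neighbourhood medians taken out they were 0.016 for COL27A1, -0.135 for COL7A1, -0.26 for ITGAE and 0.044 for ITGA6. By upper quartile they were 0.003 for ITGA6, 0.027 for FBLN1 and 0.007 for ITGAV, and by library size 0.011, 0.036 and 0.016 for the same genes. The ITGAE value was itself called; the others were not. Leaving out 1 library, uncalled members whose sign turned ranged from -0.013 to 0.083 for COL13A1, -0.043 to 0.03 for COL4A5, -0.039 to 0.032 for FBLN1, -0.072 to 0.017 for ITGA6, -0.06 to 0.019 for ITGAV and -0.075 to 0.364 for ITGB6. Causes were not tested. Depth limits members under 1 CPM.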
